A study of Mus musculus with 12 samples.

Results

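The interferon-stimulated antiviral genes described here were 36 mouse genes for sensors of viral nucleic acid and for the effectors that block viral replication. They were chosen by symbol from a list that was drawn up with earlier results of these data known. A feature counted as a member where its name was the symbol or held it as one part of a joined name. All 36 were among the 19549 features of the count files, each in 1 feature, and all 36 passed the filter on low counts. The list held 7 sensors and 29 effectors. Dtx3l was counted together with Parp9, and Adar together with Chrnb2, so the reads of these partners cannot be told apart. On the IL4 libraries alone 31 members would have passed that filter. The other members, Isg20, Ifit3b, Mx2, Ifi44 and Ifi205, were tested only through the IFNG libraries, where they were high.

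The cells were macrophages grown from the bone marrow of FVB female mice and treated over 4 h with 200 units/mL of interferon gamma (IFNG) or 40 ng/mL of interleukin 4 (IL4). About 10% of the cells were lysed for total mRNA, and the rest was spun through a sucrose gradient of 5 to 50% to collect messages with more than 3 ribosomes, the polysome-associated mRNA. This gave 4 groups of 3 libraries: IFNG total, IL4 total, IFNG polysome and IL4 polysome. No unpolarized cells were included, so each polarization difference is IFNG relative to IL4, and the labels do not say whether replicates were separate animals or cultures. The p-values therefore reflect only how these libraries scatter within groups, and this scatter may be technical.

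Interferons signal through JAK kinases and STAT transcription factors. Interferon gamma acts mainly through gamma-activated sites in the DNA, while type I interferons act mainly through interferon-stimulated response elements, which are bound by a complex that holds IRF9. The genes switched on make macrophages resistant to viruses at several steps: membrane proteins hinder entry and release, sensors recognise foreign RNA or DNA, and enzymes degrade RNA, deplete nucleotides or stop translation.

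Promoter windows of RefSeq (build GRCm38.p6, 250 bases before to 50 bases from each annotated start) were found for 28 members. Mx1, Mx2, Oas2, Usp18, Dhx58, Zbp1, Rtp4 and Ifi204 had none there. The core of the interferon-stimulated response element, written GAAANNGAAA and searched on both strands with overlapping matches kept, was in a window of 15 of the 28 members (53.6%) against 3.99% of all 27025 genes in the table. By windows of equal length the share was 44.4% of the members' 36 windows and 3.44% of all 32851. The gamma-activated site TTCNNNGAA, which reads the same on both strands, was in 9 of 28 members (32.1%) against 9.55% of all genes. By windows this was 25% against 8.3%. Both motifs were found for 4 members and neither for 8. The stretches below show how the matches lie before the start in members with large and small changes; capitals mark bases of a match, and each is written in the direction of its gene.
Isg15, chr4:156200839-156200938, minus strand, 120 to 21 bases before the start: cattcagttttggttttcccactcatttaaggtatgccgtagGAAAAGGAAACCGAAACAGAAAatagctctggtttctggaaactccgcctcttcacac
Ifit1, chr19:34640749-34640848, plus strand, 140 to 41 bases before the start: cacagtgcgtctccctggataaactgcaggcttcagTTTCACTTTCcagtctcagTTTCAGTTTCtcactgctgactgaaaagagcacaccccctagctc
Rsad2, chr12:26456513-26456612, minus strand, 160 to 61 bases before the start: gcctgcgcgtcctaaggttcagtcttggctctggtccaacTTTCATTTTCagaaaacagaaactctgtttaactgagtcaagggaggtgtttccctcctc
Oas1a, chr5:120907526-120907635, minus strand, 110 to 1 bases before the start: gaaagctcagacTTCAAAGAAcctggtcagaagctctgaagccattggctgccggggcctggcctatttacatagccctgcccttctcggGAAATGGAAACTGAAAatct
Bst2, chr8:71537543-71537642, minus strand, 170 to 71 bases before the start: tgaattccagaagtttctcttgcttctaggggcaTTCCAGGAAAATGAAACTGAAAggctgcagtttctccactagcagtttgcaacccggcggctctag
Ifi44, chr3:151749911-151750010, minus strand, 100 to 1 bases before the start: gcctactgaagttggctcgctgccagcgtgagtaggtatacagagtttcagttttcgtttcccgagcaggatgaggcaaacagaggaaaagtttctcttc
Isg15 held 3 overlapping cores, Ifit1 a separate pair on the opposite strand, and Rsad2 a single core. In Oas1a the first capitals are a gamma-activated site and the last are a pair of overlapping cores, and in Bst2 a gamma-activated site runs into such a pair. Ifi44, among the members with the largest change, held no match of either motif in its window, which says only that these letters are absent there. Ifit3 and Ifit3b, close copies of each other, each held a pair of cores within 100 bases that were identical between the copies at all 100. A match is a description of letters and was not tested as a binding site.

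**Figure D1:**
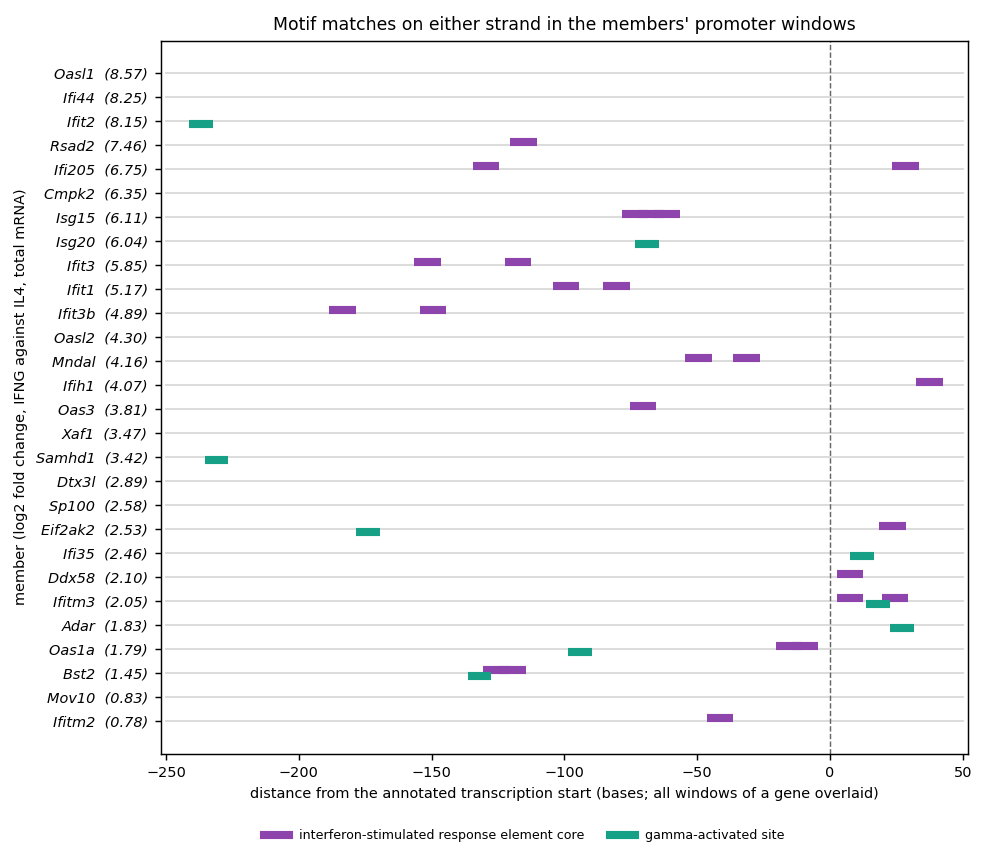
Matches of the response element core (purple) and the gamma-activated site (green) on either strand, by distance in bases from the annotated transcription start (dashed line), for the 28 members with a promoter window. Members are ordered by their log2 fold change with IFNG in total mRNA, given in brackets, and matches of the core run from Rsad2 at 7.46 to Ifitm2 at 0.78 and those of the gamma-activated site from Ifit2 at 8.15 to Bst2 at 1.45.

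The 15 members with the core had a median log2 fold change of 4.07 in total mRNA, from 0.78 to 7.46, and the 13 without it had a median of 3.47, from 0.83 to 8.57. For the gamma-activated site the medians were 2.46 in 9 members with it and 4.30 in 19 without. In 11 members a core lay before the start, and in 4 it lay only after it. The members also lay close together in the genome: 18 of 36 fell in 7 groups whose genes were separated by at most 500000 bases. These were Ifi204, Mndal and Ifi205 on chromosome 1, Oasl2 with Oasl1 and Oas2 with Oas3 and Oas1a on chromosome 5, Ifitm2 with Ifitm3 on chromosome 7, Rsad2 with Cmpk2 on chromosome 12, Mx1 with Mx2 on chromosome 16, and 4 Ifit genes on chromosome 19. The groups were set by distance alone and need not be families. Members of the same gene family resemble each other in sequence, so their counts can share reads and are uncertain gene by gene.

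Total counts were 10443200 to 22014162 in the total libraries and 2563955 to 8789480 in the polysome libraries, so counting error is larger in the polysome libraries. The feature named Lars2 took 0.341 to 1.996% of the counts of the total libraries and 1.78 to 29.3% of those of the polysome libraries, most of all in IFNG polysome replicate 3. Whether its reads come from Lars2 mRNA was not tested. All 8 macrophage markers had reads in every group. Summed conventional dendritic cell markers were 8.24 to 26.3 CPM (counts relative to the scaled size of the library) in the IFNG total libraries and 0.552 to 1.60 CPM in the IL4 total libraries, with Flt3 at 0 in all 4 groups. Xcr1 and Clec9a carried that sum, at 9.42 and 6.95 CPM on average with IFNG against 0.182 and 0 CPM with IL4, whereas Zbtb46 was at 0.40 against 0.623 CPM and Cd209a at 0 against 0.205 CPM. Neutrophil markers summed to 7.68 to 30.8 CPM against 1.01 to 3.68 CPM, and T and NK cell markers to at most 0.127 CPM in any library. S100a8 and S100a9 carried the neutrophil sum, at 9.12 and 6.10 CPM on average in IFNG total against 2.59 and 0.0211 CPM in IL4 total. Ly6g, Mpo, Elane and Cxcr2 were at 0.0998, 0.499, 0.221 and 0.0288 CPM in IFNG total against 0, 0.0837, 0 and 0 CPM in IL4 total. The part of these markers in the results was not tested. In such bulk samples a change in the number of expressing cells and a change per cell cannot be told apart.

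The comparison of IFNG with IL4 asks which members differed between the polarizations, in total mRNA and on polysomes. Unless the replicate block is named, its values come from fits that did not pair the libraries by replicate number. In total mRNA 33 of 36 members were higher with IFNG and 0 were lower, while over all 10421 features tested 7.08% were higher and 3.93% lower. The median log2 fold change of the members was 3.94, against 0.04 for all features. In polysome-associated mRNA 30 members were higher and 0 lower, beside 7.54% and 6.58% of all features, with medians of 3.64 for the members and -0.06 for all features. The 30 members called on polysomes were all among the 33 called in total mRNA. These counts and medians include Isg20, Ifit3b, Mx2, Ifi44 and Ifi205, which were tested only through the IFNG libraries. Such members could only be called higher, here and in the counts by role. The list was also chosen with earlier results of these data known, so the shares of all features stand beside it as a description. The 3 IFNG libraries lay above the 3 IL4 libraries for 34 members in total mRNA and for 31 on polysomes, beside 13.4% and 15.2% of all features, and overlapped them for the others. Together the members took 0.994 to 1.31% of the counts of the IFNG total libraries and 0.184 to 0.345% of those of the IL4 total libraries. On polysomes the shares were 0.538 to 1.13% and 0.132 to 0.252%. By role, 7 of 7 sensors were higher in both fractions, and of the 29 effectors 26 were higher in total mRNA and 23 on polysomes.

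**Figure D2:**
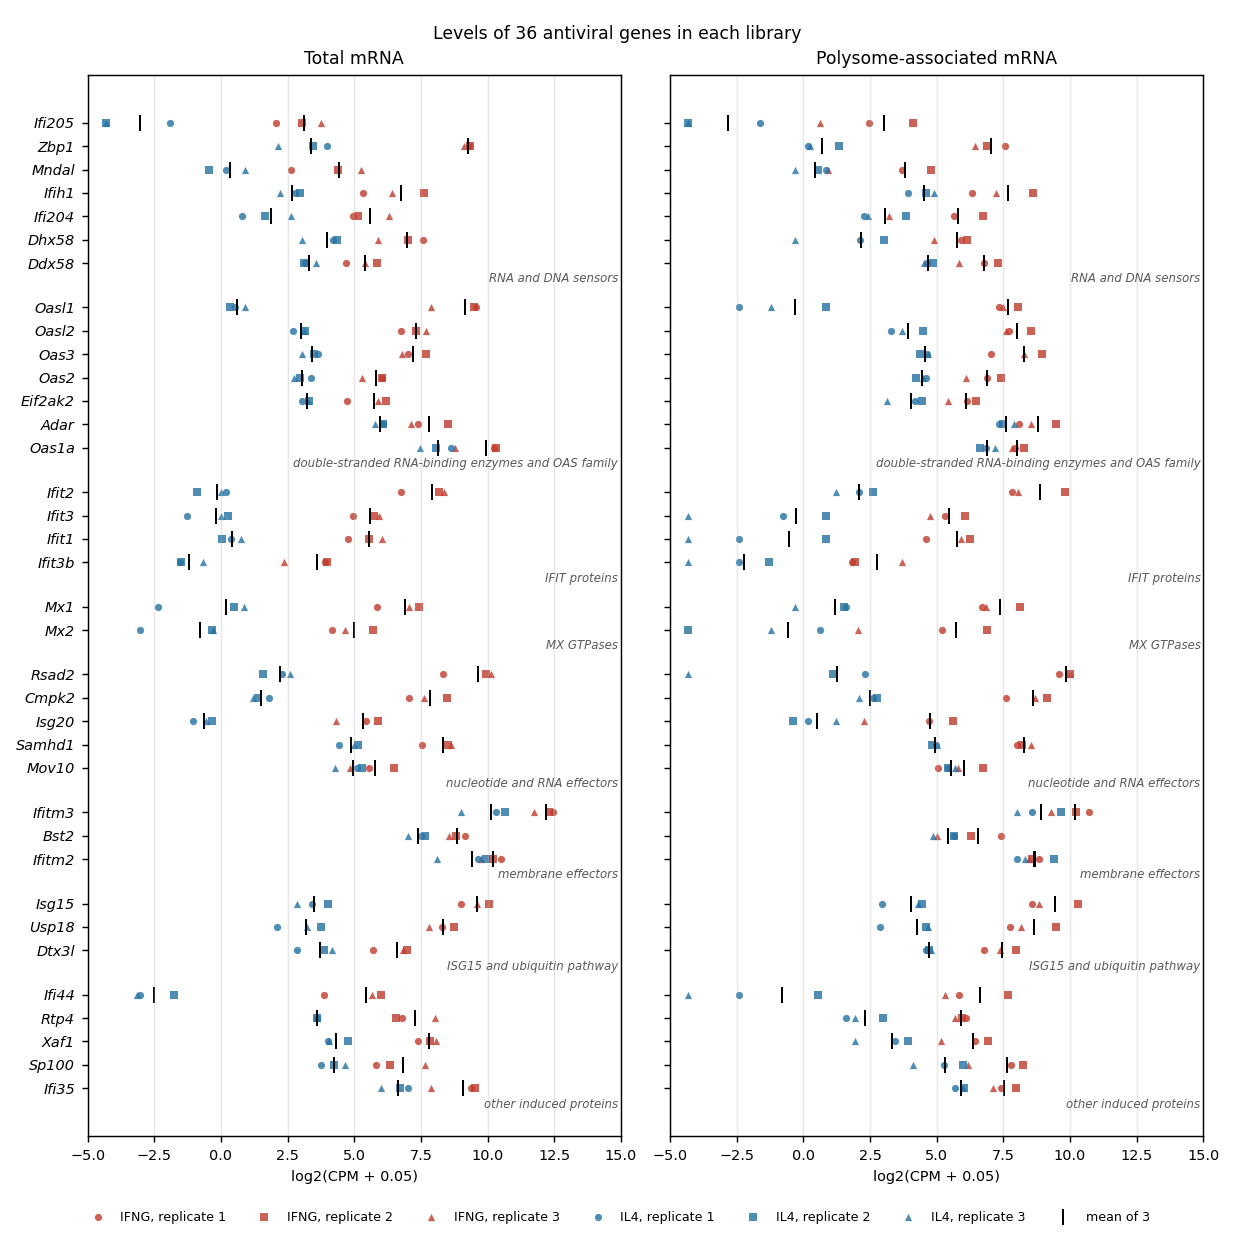
Level of each member in each library as log2(CPM + 0.05), in total mRNA (left) and polysome-associated mRNA (right), grouped by role; red is IFNG, blue is IL4, the shape gives the replicate and the black bar the mean of 3 libraries. Most red points lie to the right of the blue ones, and the points mix for Ifitm2 and Mov10 in both panels. CPM are not divided by gene length, so levels are read along a row and not between rows.

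The sensors include the helicases Ddx58 (RIG-I) and Ifih1 (MDA5), which detect viral RNA in the cytoplasm and signal through MAVS, and Dhx58 (LGP2), a relative without the signalling domains. Zbp1 binds Z-form nucleic acid and can start cell death, and Ifi204, Ifi205 and Mndal belong to a family of DNA-binding proteins. Zbp1 measured 635, 653 and 548 CPM in the IFNG total libraries against 15.9, 11 and 4.30 CPM with IL4. On polysomes it measured 189, 118 and 87.5 against 1.09, 2.48 and 1.13 CPM. The groups did not overlap in either fraction, and the log2 fold changes were 5.88 (SE 0.56, adjusted p = 1.34e-07) and 6.45 (SE 0.62, adjusted p = 2.15e-07). Ddx58 had the smallest change of the sensors in both fractions. It measured 25.9, 57.1 and 42.6 against 8.77, 8.58 and 11.8 CPM in total mRNA and 110.1, 158 and 57.3 against 25.1, 29 and 22.7 CPM on polysomes, 4.29-fold and 4.24-fold higher (adjusted p = 0.00204 and 0.0023), with no overlap. Ifih1 was 16.8-fold higher in total mRNA, at 107 ± 81.0 against 6.36 ± 1.63 CPM (mean ± SD, n = 3), and 9.02-fold higher on polysomes. Dhx58 was 8.05-fold and 12.1-fold higher.

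The DNA-binding sensors were low with IL4. Ifi205 had 293 counts over the IFNG total libraries and 3 over the IL4 total libraries, a ratio of 124.8 on scaled libraries with a 95% counting interval of 42.3 to 608. On polysomes it had 148 against 2 counts (ratio 50.4, interval 13.7 to 419.8). These intervals cover counting error only. Ifi204 rose to 48.4 ± 27.3 from 3.60 ± 2.25 CPM and Mndal to 21.7 ± 16.1 from 1.20 ± 0.588 CPM in total mRNA (log2 fold changes 3.74 and 4.16). On polysomes Ifi204 was higher by 2.80 on the log2 scale (adjusted p = 0.00861) although IFNG replicate 3, at 9.23 CPM, lay below the highest IL4 library at 14.5 CPM. Its polysome call was lost without IFNG polysome replicate 2 (1.92, adjusted p = 0.0799), IL4 polysome replicate 1 (2.50, 0.0532) or IL4 polysome replicate 3 (2.59, 0.0538). That of Mndal (3.34, adjusted p = 0.00707) was lost without IFNG polysome replicate 2 (2.49, 0.056). For Ifi204, Ifi205 and Mndal replicate 3 was the highest of the IFNG total libraries and the lowest of the IFNG polysome libraries.

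The enzymes bound to double-stranded RNA comprise the oligoadenylate synthetases Oas1a, Oas2 and Oas3, which make oligoadenylates, their relatives Oasl1 and Oasl2, the kinase PKR (Eif2ak2), which stops translation, and the RNA editor Adar. All 7 were higher with IFNG in total mRNA and 5 on polysomes. Oasl1, which has been described as an inhibitor of Irf7 translation, had the largest change of all members in total mRNA. It measured 758, 711 and 238 CPM with IFNG against 1.38, 1.23 and 1.83 CPM with IL4, and 162, 267 and 178 against 0.136, 1.77 and 0.378 CPM on polysomes. The groups lay far apart in both fractions (381-fold and 321-fold, adjusted p = 1.62e-08 and 9.35e-08). Oasl2, Oas3, Oas2 and Eif2ak2 followed with log2 fold changes of 4.30, 3.81, 2.78 and 2.53 in total mRNA and 4.13, 3.71, 2.46 and 2.06 on polysomes. Oas2 measured 65.4, 65.5 and 38.9 against 10.4, 7.66 and 6.64 CPM in total mRNA and 118, 172 and 68.0 against 24, 18.8 and 22.3 CPM on polysomes, without overlap.

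Oas1a and Adar were already well detected with IL4 and changed less. Oas1a measured 1208, 1265 and 442 against 398, 266 and 176 CPM in total mRNA, 3.47-fold higher (adjusted p = 0.0101). On polysomes the values were 247, 307 and 225 against 114, 97.7 and 146 CPM, with a log2 fold change of 1.12 that did not pass (adjusted p = 0.103), although the groups did not overlap. The total call was lost without IFNG total replicate 2 (1.5, adjusted p = 0.0761), IL4 total replicate 2 (1.76, 0.0555) or IL4 total replicate 3 (1.55, 0.0682), and the polysome difference passed without IFNG total replicate 3 (1.22, 0.0392) and in a fit of the polysome groups alone (1.21, 0.0468). Adar, counted with Chrnb2, measured 167, 362 and 141 against 67.4, 66.7 and 54.7 CPM in total mRNA (3.55-fold, adjusted p = 0.00915). Its polysome values of 270.5, 703 and 373 against 160.1, 181 and 239 CPM did not overlap and did not pass (log2 fold change 1.22, adjusted p = 0.0759). The total call of Adar was lost without IFNG total replicate 2 (1.23, 0.148), and its polysome difference passed without IFNG polysome replicate 1 (1.48, 0.0264), IFNG total replicate 2 (1.32, 0.0464) or IFNG total replicate 3 (1.32, 0.0361), with the DESeq2 Wald test (1.21, 0.0438) and among features of at least 10 CPM on average (1.30, 0.0489).

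The IFIT proteins bind viral RNA that lacks the host's cap modifications and keep it from being translated. All 4 were higher with IFNG in both fractions. Ifit2 measured 108, 289 and 327 against 1.09, 0.490 and 0.949 CPM in total mRNA and 227, 907 and 264 against 4.22, 6.02 and 2.27 CPM on polysomes. The lowest IFNG library was far above the highest IL4 library in each fraction (284-fold and 111-fold, adjusted p = 5.97e-08 and 4.36e-07). Ifit3 and Ifit1 had log2 fold changes of 5.85 and 5.17 in total mRNA and 5.89 and 6.65 on polysomes. Ifit3b, which shares its reads with Ifit3 to an unknown degree, rose by 4.89 in total mRNA and had 93 counts against 2 on polysomes (ratio 31.6, 95% counting interval 8.52 to 265).

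The MX proteins are dynamin-like GTPases that trap viral nucleocapsids. Mx1 measured 57.5, 171 and 133 against 0.145, 1.35 and 1.77 CPM in total mRNA and 104, 280.2 and 116 against 3.00, 2.83 and 0.756 CPM on polysomes, again without overlap (108-fold and 71.7-fold, adjusted p = 7.25e-07 and 3.47e-06). Mx2 was 58.4-fold and 64.2-fold higher, from 0.522 ± 0.390 CPM with IL4 in total mRNA and 0.626 ± 0.779 CPM on polysomes, where IFNG replicate 3 reached 4.06 CPM against 118 CPM in replicate 2. Many laboratory strains carry a defective Mx1 gene, and the files do not show whether these messages encode a working protein.

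Among the effectors that act on nucleotides and RNA, Rsad2 (viperin) makes a chain-terminating nucleotide, its neighbour Cmpk2 supplies the nucleotide triphosphate, Samhd1 depletes deoxynucleotides, Isg20 is an exonuclease and Mov10 is an RNA helicase. Rsad2 measured 322, 988 and 1109 against 4.79, 2.94 and 6.01 CPM in total mRNA. On polysomes it measured 762, 1018 and 1019 against 4.90, 2.12 and 0 CPM, with no read in IL4 replicate 3. No libraries overlapped (176-fold and 349-fold, adjusted p = 2.52e-07 and 1.69e-07). Cmpk2 was 81.8-fold and 68.6-fold higher, Isg20 65.7-fold and 20.5-fold, and Samhd1 10.7-fold and 10.1-fold. Mov10 stood apart with 46.4, 90.7 and 28.2 against 34.3, 39.3 and 19.5 CPM in total mRNA and 33.1, 107 and 55.4 against 43.1, 42.8 and 51.8 CPM on polysomes. Its groups overlapped in both fractions and its log2 fold changes of 0.83 (95% interval -0.16 to 1.81) and 0.50 (-0.48 to 1.49) did not pass (adjusted p = 0.351 and 0.549).

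The membrane effectors had the smallest changes of any role. Ifitm2 and Ifitm3 hinder the fusion of viruses with endosomal membranes, and Bst2 (tetherin) holds budding virions at the cell surface. Ifitm3 measured 5569, 5014 and 3463 against 1266, 1617 and 510.1 CPM in total mRNA, 4.14-fold higher without overlap (adjusted p = 0.0108), a call that was lost without IL4 total replicate 3 (1.70, 0.0645). On polysomes 1663, 1199.6 and 623 CPM overlapped with 378, 803 and 256 CPM and the log2 fold change of 1.28 did not pass (adjusted p = 0.104). It passed with the replicate number as a block (1.32, adjusted p = 0.0223) and without IL4 polysome replicate 2 (1.87, 0.0478). Bst2 measured 564, 452 and 374 against 179, 199 and 129.7 CPM in total mRNA. These groups did not overlap, but the log2 fold change of 1.45 narrowly missed the threshold (adjusted p = 0.0571), and it passed with the block (1.45, adjusted p = 0.0169). It also passed without IFNG polysome replicate 1 (1.45, 0.0174), IFNG polysome replicate 3 (1.40, 0.0301) or IFNG total replicate 3 (1.54, 0.0438), with the DESeq2 Wald test (1.41, 0.0281), with no filter (1.45, 0.0219) and in a fit of the total groups alone (1.45, 0.0198). The polysome values of Bst2 overlapped, at 172, 77.4 and 32.5 against 50.0, 49.9 and 29.1 CPM (log2 fold change 1.13, adjusted p = 0.133), and passed without IFNG polysome replicate 3 (1.58, 0.027). Ifitm2 measured 1466, 1177 and 869.7 against 802, 975 and 275 CPM in total mRNA and 455, 386 and 349 against 261, 670.0 and 320.3 CPM on polysomes. Its groups overlapped in both fractions, with log2 fold changes of 0.78 and -0.07 and 95% intervals of -0.21 to 1.76 and -1.05 to 0.91.

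Isg15 is a ubiquitin-like modifier that is attached to host and viral proteins, Usp18 removes it and dampens interferon receptor signalling, and Dtx3l is a ubiquitin ligase that works with Parp9. All 3 were higher in both fractions. Isg15 measured 516, 1054 and 769 against 10.5, 16.1 and 7.15 CPM in total mRNA and 377, 1249 and 462 against 7.77, 21.6 and 19.7 CPM on polysomes, with no overlap (69.1-fold and 43.1-fold, adjusted p = 3.31e-07 and 1.74e-06). Usp18 was 35.4-fold and 21.6-fold higher. The joined feature of Dtx3l and Parp9 was 7.40-fold and 6.79-fold higher.

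The remaining induced proteins were Ifi44, Ifi35, the chaperone Rtp4, the apoptosis factor Xaf1 and the nuclear body protein Sp100. All 5 were higher in both fractions. Ifi44 was barely detected with IL4, at 0.0725, 0.245 and 0.0633 CPM in total mRNA and 0.136, 1.42 and 0 CPM on polysomes. With IFNG it measured 14.6, 64.9 and 51.0 and 56.8, 202 and 39.9 CPM. Replicate 1 was the lowest IFNG total library and replicate 3 the lowest on polysomes, and all were above the IL4 libraries (log2 fold changes 8.25, SE 0.91, and 7.84, SE 0.94). Ifi35 measured 662, 743 and 235 against 128, 105 and 64.2 CPM in total mRNA and 171, 249.7 and 138 against 51.8, 64.4 and 63.2 CPM on polysomes, without overlap in either. Its polysome call (1.64, adjusted p = 0.0184) was lost without IFNG polysome replicate 2 (1.37, 0.0889) and without any single IL4 polysome library (1.55 to 1.70, 0.0607 to 0.0662). Xaf1, Rtp4 and Sp100 were 11.1-fold, 12.9-fold and 5.98-fold higher in total mRNA and 8.13-fold, 12.9-fold and 4.99-fold on polysomes. The polysome call of Sp100 (log2 fold change 2.32, adjusted p = 0.00792) was lost without IL4 polysome replicate 3 (1.97, 0.0577).

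**Figure D3:**
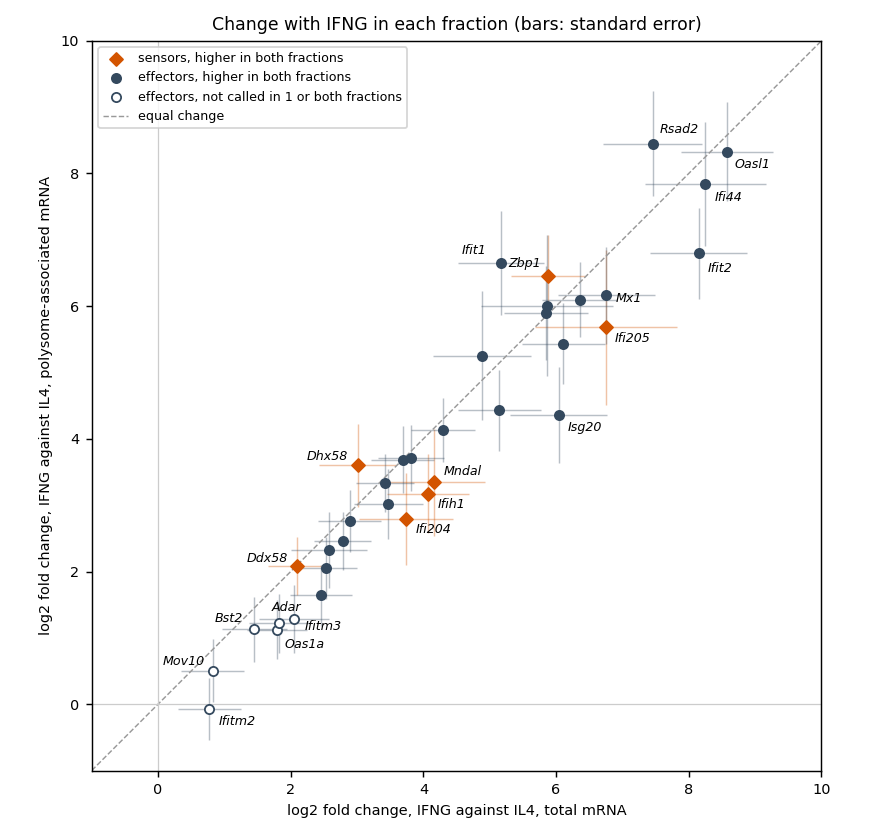
Log2 fold change of IFNG against IL4 in total mRNA (horizontal) and polysome-associated mRNA (vertical) for each member, with standard errors; orange diamonds are sensors, grey circles effectors, open symbols members not called in 1 or both fractions, and the dashed line marks equal change. The points follow the line from Ifitm2 at the lower left to Oasl1, Ifi44 and Rsad2 at the upper right, and 29 of 36 lie on its lower side. Of all 10421 features tested, 5975 would lie on that side.

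Whether the difference between polarizations was itself different on polysomes was tested as an interaction. With edgeR 0 of 36 members and 0% of the 10421 features were called in either direction, and 0 members were under 0.05 before adjustment. Over all features 176 were under 0.05 before adjustment. DESeq2 and limma each called 1 feature in all, not a member. Before adjustment DESeq2 had 0 members under 0.05 and limma had 1, Isg20. Isg20 had a polysome change -1.68 on the log2 scale relative to its total change (SE 0.96), and Ifit1 had the highest value at 1.48 (SE 0.99). Of the members 29 had a negative and 7 a positive difference, beside 5975 negative and 4446 positive of the 10421 features. The median was -0.32 for the members and -0.10 for all features. The 95% intervals of the 34 members with a computable standard error all held 0 and reached from 1.17 to 3.59 to either side, so differences of that size could not be told from none. Ddx58 and Rtp4, with differences of -0.02 and -0.0029, had no standard error.

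The comparison of polysome-associated with total mRNA asks how the members were distributed relative to the average message of the same polarization. Some roles held members on both sides. With IFNG 1 member was higher on polysomes and 9 were lower, beside 8.93% and 17.0% of all features. With IL4 5 were higher and 5 lower, beside 13.2% and 15.9%. These IL4 counts were near the shares of all features, so no trait of the members is read from them. The counts of both polarizations also come from a fit that did not pair the libraries by replicate number. With the number as a block Dhx58 and Oas2 also passed with IFNG, and Ifitm3, Oas3 and Dtx3l with IL4. The median log2 difference of the members was 0.20 with IFNG and 0.58 with IL4, against 0.00 and 0.06 for all features. Of the 15 members called in at least 1 polarization, 4 were lower in both (Zbp1, Bst2, Oas1a and Rtp4), 1 was higher in both (Ddx58) and 0 were called in opposite directions. Some IL4 calls rest on few counts. Over the IL4 polysome libraries Zbp1 had 18 counts, Ifit2 and Rtp4 54 each and Dhx58 57.

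**Figure D4:**
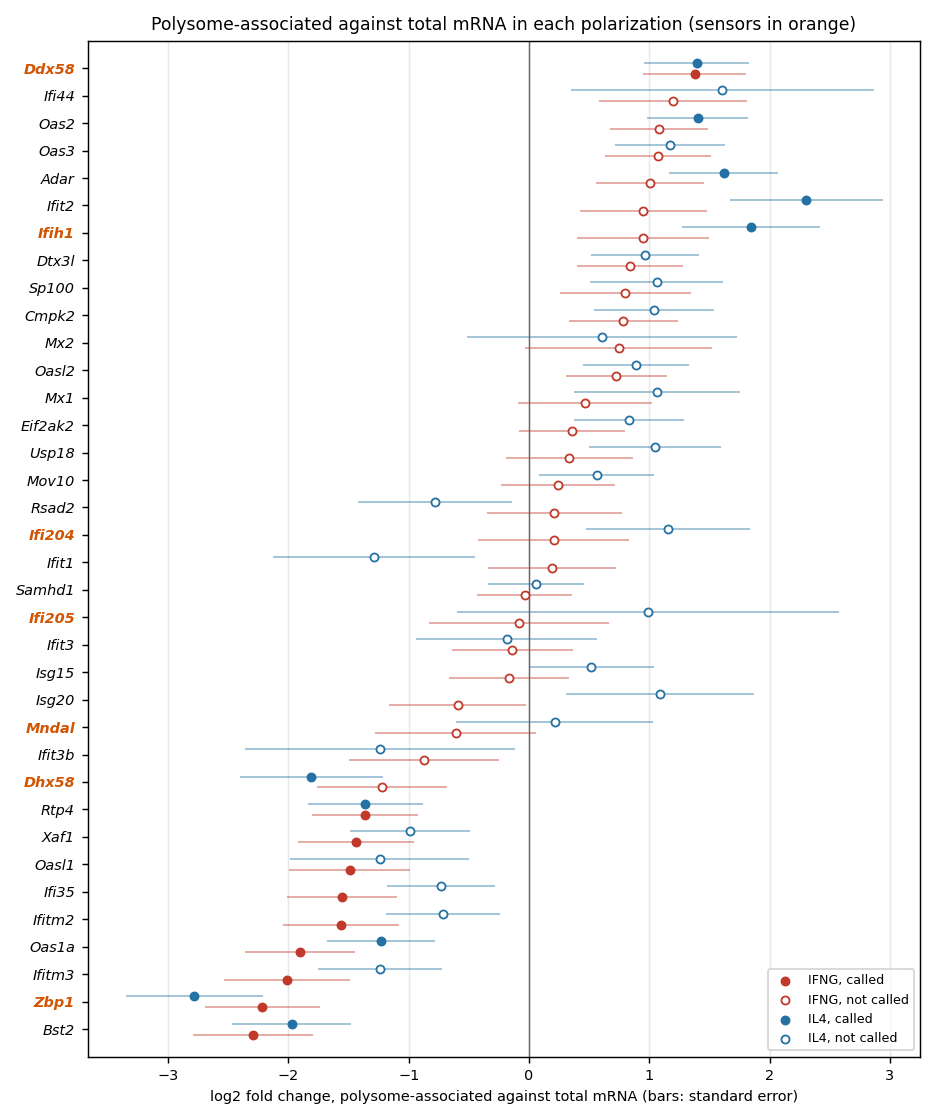
Log2 fold change of polysome-associated against total mRNA for each member with IFNG (red) and IL4 (blue), with standard errors; filled points passed the threshold and sensor names are in orange. Bst2 and Zbp1 lie lowest and Ddx58 highest among the IFNG values, and the sensors are spread over the whole range.

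Among the sensors Zbp1 lay far from the helicases Ddx58 and Ifih1. Zbp1 was 4.65-fold lower on polysomes with IFNG (log2 difference -2.22, 95% interval -3.20 to -1.23, adjusted p = 0.00251) and 6.89-fold lower with IL4 (adjusted p = 0.00229), with all polysome libraries below all total libraries. Ddx58 was higher on polysomes by 1.38 with IFNG (interval 0.49 to 2.26, adjusted p = 0.0214) and by 1.39 with IL4 (adjusted p = 0.021). Its IFNG call was lost in a fit of the IFNG groups alone (1.32, adjusted p = 0.0659). Ifih1 was higher by 1.84 with IL4 (adjusted p = 0.0213), and its value of 0.95 with IFNG did not pass. Dhx58, the third helicase, lay on the other side, at -1.81 with IL4 (adjusted p = 0.0269) and -1.22 with IFNG, which did not pass. The DNA-binding sensors Ifi204, Ifi205 and Mndal had values of 0.21, -0.08 and -0.61 with IFNG, none of which passed. Over the 7 sensors 1 was higher and 1 lower with IFNG and 2 and 2 with IL4, with medians of -0.08 and 0.99, and over the 29 effectors 0 were higher and 8 lower with IFNG and 3 and 3 with IL4, with medians of 0.21 and 0.56.

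The order of sensors and effectors by their change with IFNG depended on who counts as a sensor. With the 7 sensors the median log2 fold change was 4.07 in total mRNA against 3.81 for the 29 effectors, and 3.34 against 3.71 on polysomes. When Eif2ak2, Oas1a, Oas2 and Oas3, which also bind viral RNA, were counted as sensors, the medians were 3.74 for 11 sensors and 4.89 for 25 effectors in total mRNA, and 3.17 against 4.36 on polysomes. The classes overlapped widely under both definitions, with sensors from 2.10 to 6.75 and effectors from 0.78 to 8.57 in total mRNA.

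All 3 membrane effectors were lower on polysomes with IFNG. Bst2 was 4.91-fold lower with IFNG and 3.93-fold lower with IL4 (adjusted p = 0.00269 and 0.00722). Ifitm3 was 4.03-fold lower with IFNG (adjusted p = 0.00829) and Ifitm2 2.95-fold (adjusted p = 0.0212). For all 3 the IFNG polysome libraries lay below the IFNG total libraries, as they did for 7 of the 36 members and 18.8% of all features. With IL4 the log2 differences of -1.24 for Ifitm3 and -0.71 for Ifitm2 did not pass, and the libraries overlapped. Ifitm3 with IL4 was called lower under 11 of 21 alternatives, among them the DESeq2 Wald test (-1.29, adjusted p = 0.0363), a mean of at least 10 CPM (-1.32, 0.0397), no filter (-1.25, 0.0492), only the groups compared (-1.31, 0.0252), the replicate block (-1.22, 0.0195) and Lars2 left out (-1.44, 0.0428).

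The oligoadenylate synthetases were split as well. Oas1a was lower on polysomes, 3.74-fold with IFNG (adjusted p = 0.00511) and 2.35-fold with IL4 (adjusted p = 0.043), and Oasl1 was 2.81-fold lower with IFNG (adjusted p = 0.0327), where the groups overlapped. With limma on the deposited log2 values the IFNG call of Oasl1 was lost (-1.36, adjusted p = 0.117). The IL4 call of Oas1a was lost there too (-1.18, 0.0525). Oas2 was 2.64-fold higher with IL4 (adjusted p = 0.0179) and missed the threshold with IFNG (log2 difference 1.08, adjusted p = 0.0549), with no overlap in either. Oas3 had values of 1.07 with IFNG and 1.17 with IL4, which did not pass. Of 21 alternatives 5 called Oas2 with IFNG, 4 called Oas3 with IFNG and 6 called Oas3 with IL4. Adar was 3.07-fold and Ifit2 4.94-fold higher on polysomes with IL4 (adjusted p = 0.0126 and 0.0114), while their IFNG values of 1.01 and 0.95 did not pass, that of Adar except under 4 of 21 alternatives. Ifit2 was near the floor with IL4, with 38 counts over the total and 54 over the polysome libraries. Ifi44 had the second highest IFNG value at 1.20 (SE 0.61), which did not pass. Rtp4, Xaf1 and Ifi35 were lower with IFNG (-1.36, -1.44 and -1.55), and Rtp4 also with IL4 (-1.36). The IFNG call of Rtp4 was lost with limma on the deposited log2 values (-1.23, adjusted p = 0.0506). It was also lost in a fit of the IFNG groups alone (-1.39, 0.0528).

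Several of these calls were lost when a single library was left out. Such a fit has fewer libraries, so a loss does not show that the call rested on the library left out. The IFNG calls of Bst2, Zbp1, Ifitm3 and Oas1a, and the IL4 calls of Bst2 and Zbp1, were kept when each library was left out in turn. Without IFNG total replicate 1, the calls of Ddx58 (1.18), Ifi35 (-1.34), Ifitm2 (-1.31), Oasl1 (-1.17) and Xaf1 (-1.55) were lost. Without IFNG total replicate 2, the calls of Ifi35 (-1.20), Oasl1 (-1.23) and Xaf1 (-1.34) were lost and Adar (1.63), Ifih1 (1.82) and Oas3 (1.48) passed. Without IFNG total replicate 3, the calls of Rtp4 (-0.72) and Xaf1 (-1.23) were lost and Dhx58 (-1.51) and Sp100 (1.57) passed. Without IFNG polysome replicate 1, the call of Oasl1 (-1.36) was lost and Adar (1.27) and Oas3 (1.43) passed. Without IFNG polysome replicate 2, the calls of Ddx58 (1.00), Ifitm2 (-1.54), Oasl1 (-1.75) and Rtp4 (-1.38) were lost. Without IFNG polysome replicate 3, the calls of Ifi35 (-1.34), Ifitm2 (-1.45), Oasl1 (-1.37), Rtp4 (-1.22) and Xaf1 (-1.04) were lost and Oas2 (1.40) passed. The calls lost had adjusted p of 0.0547 to 0.19. The number of members lower with IFNG was 5 without IFNG total replicate 1 and 4 without IFNG polysome replicate 3, against 9 with all libraries. Without IL4 total replicate 1, the calls of Ddx58 (1.32), Dhx58 (-1.68), Ifih1 (1.89), Oas1a (-0.90) and Rtp4 (-1.36) were lost. Without IL4 total replicate 2, the calls of Ddx58 (1.31), Dhx58 (-1.59), Ifih1 (2.01), Ifit2 (2.02), Oas1a (-1.27), Oas2 (1.35) and Rtp4 (-1.37) were lost. Without IL4 total replicate 3, the calls of Ifih1 (1.65), Oas2 (1.27) and Rtp4 (-1.36) were lost and Ifitm3 (-1.59) passed. Without IL4 polysome replicate 1, the calls of Dhx58 (-1.80), Oas1a (-1.21), Oas2 (1.31) and Rtp4 (-1.07) were lost. Without IL4 polysome replicate 2, the calls of Ddx58 (1.30), Ifih1 (1.80) and Oas1a (-1.11) were lost and Ifit1 (-3.56), Ifitm3 (-1.84) and Oasl1 (-2.76) passed. With all IL4 polysome libraries Ifit1 and Oasl1 had only 6 and 7 counts, so these 2 values lie near the floor. Without IL4 polysome replicate 3, the calls of Adar (1.44), Dhx58 (-1.37), Ifih1 (1.62), Oas1a (-1.40) and Rtp4 (-1.24) were lost. Without IFNG total replicate 3, Ifitm3 (-1.33) passed. Without IFNG polysome replicate 1, Ifitm3 (-1.24) and Oas3 (1.17) passed. Without IFNG polysome replicate 2, the call of Oas1a (-1.23) was lost and Oas3 (1.17) passed. Without IFNG polysome replicate 3, Ifitm3 (-1.33) passed. Here the lost calls had adjusted p of 0.0502 to 0.195.

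The signalling genes around the members came from a list of 42 genes of interferon ligands, receptors, kinases, transcription factors, adapters and inhibitors, of which 40 were in the files and 33 could be tested. In total mRNA 14 were higher with IFNG and 1 was lower, beside 7.08% and 3.93% of all features. On polysomes 9 were higher and 1 lower, beside 7.54% and 6.58%. The median log2 fold changes were 1.27 and 1.04, against 0.04 and -0.06 for all features. This list, too, was chosen with earlier results of these data known. Of the ligands 0 of 7 could be tested: Ifnb1, the type I interferon of fibroblasts and macrophages, had 8 counts over the IFNG total libraries and 0 elsewhere, and Ifng had 0. Jak2, a kinase of the interferon gamma receptor, was higher in both fractions (log2 fold changes 1.78 and 2.07), whereas the receptor chains Ifngr1 (-0.21) and Ifnar1 (0.04) did not pass in total mRNA. The transcription factors Stat2 (3.46 and 3.42), Irf1 (4.20 and 3.93) and Irf7 (5.10 and 3.78) were higher in both, while Irf9, a partner of STAT2, did not pass (1.00, adjusted p = 0.134, and 0.59, adjusted p = 0.381). Tmem173 (STING), the adapter of cytoplasmic DNA sensing, was higher in both (2.46 and 1.84), and Mavs, the adapter of Ddx58 and Ifih1, did not pass in either (-0.28 and -0.49).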

How the data were processed

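Gene counts of 12 SmartSeq2 libraries were used. Per the file headers, the authors deposited for each library raw read counts per feature and log2 values scaled by the trimmed mean of M values. HISAT2, HISAT, limma and mm10 are named, per the submitters' processing notes, without versions. The deposited log2 values, present for 11006 features, served only in an alternative with limma.

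Counts of 19549 features were analysed with edgeR 4.0.16 in R 4.3.3: filterByExpr left 10421 features, libraries were scaled by TMM, and a robust quasi-likelihood model with 4 groups gave 5 comparisons. The p-values of edgeR's quasi-likelihood test were adjusted by Benjamini-Hochberg over all 10421 features, with a threshold of 0.05. CPM refer to TMM-scaled totals and are not divided by length, since no exon lengths were used. Polysome and total libraries were each scaled to their own reads, so their difference is relative to the average feature. Features with joined names, 830 in all, were kept as deposited.

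Values in every library are given for the member of highest mean CPM in each role, the 3 members with the largest and the 3 with the smallest change in total mRNA, members not called, and the 3 highest and 3 lowest on polysomes with IFNG. The members and lists were chosen with earlier results of these data known. For IFNG and IL4 libraries of the same number and fraction, deviations from group means correlated with r from 0.111 to 0.663, over 0.1 in every pair. Of these pairs 5 of 6 matched their own number best (in total mRNA number 2 had r = 0.186 and 0.318 with another number). The main fit did not use the numbers as pairs in any comparison. They were taken as pairs only in the alternative fit with the replicate block, which is given where it changed a call. Alternatives were other scalings, filters and tests (DESeq2 1.42.0, limma 3.58.1), fits of fewer groups, Lars2 left out, and each library left out in turn. Some genes of the signalling list are counted in its totals but not reported here by name.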

Additional observations from a re-analysis of the deposited data

How the results depend on the processing

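The 180 results of members were recomputed under 21 alternatives, giving 3722 values, of which 0 reversed a called direction, 67 lost and 56 gained a call, and 141 were uncalled differences that changed sign. Leaving out each library gave 31 to 34 members higher with IFNG in total mRNA, 27 to 32 on polysomes and 0 to 0 in the interaction. Between polysome-associated and total mRNA with IFNG, where 1 member was higher, the count was 2 with the replicate block, 4 with upper quartile scaling, 2 with the DESeq2 Wald test, 2 with no filter, 4 among features with a mean of at least 10 CPM and 0 with only the 2 groups compared; leaving out each library gave 0 to 4 higher and 4 to 9 lower. With IL4, where 5 were higher and 5 lower, it gave 1 to 6 higher and 2 to 7 lower, and the other alternatives 5 to 7 higher and 4 to 6 lower. The causes were not tested. The main fit took the numbers as pairs in no comparison, although the protocol split cells between total and polysome-associated mRNA. Between these fractions r was not over 0.1 in every pair. It ran from -0.0236 to 0.352 with IFNG and 0.0176 to 0.286 with IL4, and 2 of 3 and 2 of 3 matched their own number best. A low r does not show that the libraries came from different cells. With the block Dhx58 (-1.19) and Oas2 (1.06) passed with IFNG and Ifitm3 (-1.22), Oas3 (1.20) and Dtx3l (1.09) with IL4. In the pairing of IFNG with IL4 the block changed no call of a member besides Bst2 and Ifitm3. Over all features, the largest changes of counts were 237 lower in total mRNA without IFNG total replicate 2, 351 lower on polysomes, 496 higher on polysomes, 297 higher and 935 lower on polysomes than in total mRNA with IFNG and 515 higher and 1004 lower with IL4, each without 1 library; with only the groups compared 483 were higher with IFNG. Without a filter the interaction had 1 feature higher and 4 lower. Upper quartile scaling shifted the median of all features by -0.127 in total mRNA, 0.108 in the interaction and 0.155 between fractions with IFNG, and leaving out Lars2 by 0.118 on polysomes, 0.115 in the interaction and -0.195 between fractions with IL4. Summing several rows of a member was not run, since each member had 1. The polysome libraries were shallower, and the part of depth in these results was not tested.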

Other observations

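Close relatives of the members that were not on the list were looked at after the members' values had been seen. By name pattern 24 features belonged to 6 of the members' families, and 15 could be tested. In total mRNA 11 were higher with IFNG and 0 lower, beside 7.08% and 3.93% of all features. On polysomes 9 were higher and 0 lower, beside 7.54% and 6.58%. Some of these relatives were nearly absent with IL4. Pydc3 had 84 counts against 0 in total mRNA, Ifit1bl2 66 against 4 and Ifit1bl1 40 against 1. They could be tested only because of the IFNG libraries, so their direction is no separate result. Oas1g, which is nearly identical to Oas1a and may share its reads, measured 645 ± 308 CPM (mean ± SD, n = 3) with IFNG against 182 ± 72.0 CPM with IL4 in total mRNA (log2 fold change 1.82, SE 0.45) and 155 ± 29.9 against 59.2 ± 11.1 CPM on polysomes (1.39). The relatives of Ifi204 rose too: Pyhin1 from 1.63 ± 0.128 to 57.0 ± 34.3 CPM in total mRNA (5.12) and Ifi202b from 15.8 ± 1.31 to 194 ± 85.1 CPM (3.61).

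Between polysome-associated and total mRNA 5 of the 15 relatives were lower and 0 higher in each polarization, beside 17.0% lower and 8.93% higher of all features with IFNG and 15.9% and 13.2% with IL4. Oas1g was lower by 2.05 on the log2 scale with IFNG and by 1.62 with IL4, beside the values for Oas1a in the results above. The joined feature of Ifi27 and Ifi27l2a had the lowest value with IFNG, at 253 ± 215 CPM on polysomes against 4709 ± 876 CPM in total mRNA with IFNG (log2 difference -4.22). With IL4 it measured 173 ± 79.6 against 1841 ± 968 CPM (-3.41). There Ifi27l2b, Ifitm1 and Oas1b were also called lower, from 0, 3 and 3 counts over the IL4 polysome libraries.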
